A study of Mus musculus with 3 samples.

Results

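The CXC chemokines described here, in mouse bone-marrow-derived macrophages, are 9 genes of a family of secreted or membrane-bound attractants. They are the interferon type Cxcl9, Cxcl10 and Cxcl11, the ELR type Cxcl1, Cxcl2, Cxcl3 and Cxcl5, and Cxcl16 and Cxcl14, which belong to neither. They were picked by gene symbol, not by level, and are 9 of the 55536 genes annotated in the tables. The macrophages, phagocytes grown from marrow of C57BL/6J mice as primary cells, had been given 100 ng/ml lipid A for 12 h, kept without it for 12 h and given 100 ng/ml lipid A again for 480 min. Lipid A is the part of bacterial lipopolysaccharide that Toll-like receptor 4 senses. The treatment fields of the same labels say lipoprotein A, and the written description is followed here. Polyadenylated RNA of 3 biological replicates was sequenced, and all 3 libraries form 1 group. All replicates point to 1 donor record, and nothing says that the cultures came from separate animals, so the spread between libraries may be technical. Untreated and once-stimulated cells were not analysed here, and the values are therefore levels and ratios within a library, with no effect of the stimulation.

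Chemokines of the CXC family carry a cysteine, any residue and a second cysteine near the start of the mature protein. Where glutamate, leucine and arginine (ELR) stand directly before these cysteines, the protein binds CXCR2 and draws neutrophils. CXCL9, CXCL10 and CXCL11 lack the ELR, bind CXCR3 and draw activated T cells and natural killer cells, and their genes are known targets of interferons. In macrophages, Toll-like receptor 4 signals through MyD88, which leads to NF-kB and to early cytokine and ELR chemokine transcription, and through TRIF, which leads to interferon beta and to the interferon type.

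The ELR is what divides the family, so the coding bases around it are shown for each member, from GENCODE M21 transcripts. Each line runs 5′ to 3′ over 39 bases, and the capitals mark the 3 codons directly before the CXC and the 3 codons of the CXC itself.
Cxcl9: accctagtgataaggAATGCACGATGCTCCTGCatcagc
Cxcl10: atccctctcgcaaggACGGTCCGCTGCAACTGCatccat
Cxcl11: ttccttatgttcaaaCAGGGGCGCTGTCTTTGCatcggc
Cxcl1: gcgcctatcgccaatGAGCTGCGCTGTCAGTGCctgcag
Cxcl2: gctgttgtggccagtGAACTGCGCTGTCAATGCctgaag
Cxcl3: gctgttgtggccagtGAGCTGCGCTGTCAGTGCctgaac
Cxcl5: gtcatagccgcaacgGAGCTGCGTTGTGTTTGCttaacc
Cxcl16: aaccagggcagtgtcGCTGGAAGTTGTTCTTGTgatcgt
Cxcl14: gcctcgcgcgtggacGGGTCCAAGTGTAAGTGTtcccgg
Codons for glutamate, leucine and arginine stood before the CXC in all 4 ELR type genes and in none of the other 5. Over the whole coding sequence, Cxcl2 and Cxcl3 were 89.7% identical, Cxcl1 was 75.7% identical to Cxcl2 and 72.7% to Cxcl3, and Cxcl5 shared 46.0% to 48.2% with the other ELR type genes. The interferon type genes shared 40.6% to 49.0% with one another. Because Cxcl2 and Cxcl3 are so close, how reads were split between them is a model estimate.

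On mm10, 7 of the genes lie on chromosome 5. The ELR type is on the plus strand, with Cxcl5 at 90759360 to 90761624, Cxcl3 at 90786103 to 90789600, Cxcl1 at 90891241 to 90893115 and Cxcl2 at 90903871 to 90905938. The interferon type follows 1415 kb beyond Cxcl2 on the minus strand, with Cxcl9 at 92321347 to 92328079, Cxcl10 at 92346638 to 92348889 and Cxcl11 at 92359544 to 92365485. Cxcl16 lies on chromosome 11 (70453983 to 70459984, minus strand) and Cxcl14 on chromosome 13 (56288643 to 56296551, minus strand). M21 classes Cxcl11 as a polymorphic pseudogene, and C57BL/6 mice are known to carry a Cxcl11 allele that gives no functional protein, so its level is given as that of a transcript. Art3, on the opposite strand, spans Cxcl10 and Cxcl11 and held 28.01, 26 and 14 expected counts in replicates 1, 2 and 3, against 93361, 116821 and 72685 for Cxcl10. Strandedness of the libraries is not stated in the labels or headers, so reads of overlapping genes on opposite strands cannot be told apart.

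Promoters are shown for members whose levels moved apart or together between libraries, as the 250 bases before the RefSeq start (GRCm38.p6). RefSeq promoters were matched for 6 of the 9 members, and not for Cxcl5, Cxcl11 and Cxcl16. Capitals mark matches on either strand to an interferon-response motif (GAAANNGAAA, 3.44% of 32851 promoters of 300 bases) and an NF-kB motif (GGGNNNTNCC, 17.4%). They also mark TATAAA on the strand of the gene (8.32%). Overlapping matches run together.
Cxcl9 (chr5:92328080-92328329, minus strand): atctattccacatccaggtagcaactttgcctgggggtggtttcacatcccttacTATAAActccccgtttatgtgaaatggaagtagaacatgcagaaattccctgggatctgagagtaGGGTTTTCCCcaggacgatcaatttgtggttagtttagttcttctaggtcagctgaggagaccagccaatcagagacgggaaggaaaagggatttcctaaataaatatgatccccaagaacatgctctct
Cxcl10 (chr5:92348890-92349139, minus strand): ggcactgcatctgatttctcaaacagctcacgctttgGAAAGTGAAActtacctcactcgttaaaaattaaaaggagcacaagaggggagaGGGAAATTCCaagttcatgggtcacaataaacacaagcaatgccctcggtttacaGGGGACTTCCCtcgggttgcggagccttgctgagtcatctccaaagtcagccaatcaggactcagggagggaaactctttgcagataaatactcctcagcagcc
Cxcl1 (chr5:90890995-90891244, plus strand): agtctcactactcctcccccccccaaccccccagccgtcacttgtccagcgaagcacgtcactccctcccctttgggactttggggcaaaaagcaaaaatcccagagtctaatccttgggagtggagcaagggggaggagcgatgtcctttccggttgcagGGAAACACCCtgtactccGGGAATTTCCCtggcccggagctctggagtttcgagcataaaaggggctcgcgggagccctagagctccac
Cxcl2 (chr5:90903649-90903898, plus strand): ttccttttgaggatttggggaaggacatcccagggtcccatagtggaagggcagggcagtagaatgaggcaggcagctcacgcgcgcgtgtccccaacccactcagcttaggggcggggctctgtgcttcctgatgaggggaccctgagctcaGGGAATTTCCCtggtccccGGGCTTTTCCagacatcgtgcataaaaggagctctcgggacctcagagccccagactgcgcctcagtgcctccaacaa
Cxcl3 (chr5:90785851-90786100, plus strand): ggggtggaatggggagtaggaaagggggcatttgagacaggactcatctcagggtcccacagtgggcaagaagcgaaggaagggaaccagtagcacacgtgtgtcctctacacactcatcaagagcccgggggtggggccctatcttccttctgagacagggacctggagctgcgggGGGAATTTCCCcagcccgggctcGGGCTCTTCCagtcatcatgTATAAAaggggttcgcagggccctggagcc
The interferon-response motif was found in Cxcl10, 213 bases before the start, and among the promoters not printed in Cxcl14, 172 bases before it. The NF-kB motif was found in all 5 promoters printed and not in that of Cxcl14. Cxcl1, Cxcl2 and Cxcl3 shared the match GGGAATTTCC, 71, 97 and 73 bases before their starts, and 0.0883% of all promoters hold these letters on either strand. The letters were picked after the matches were seen, in genes close in coding sequence, so this share does not test how unusual the match is. A match is a description of letters and not of binding.

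The libraries held 24596382, 54016971 and 43127749 expected counts in replicates 1, 2 and 3. Replicate 2 stood apart in its mitochondrial messenger RNAs, which took 6.86% of its counts (1.06% and 1.13% in replicates 1 and 3), and its median protein-coding gene lay 0.22 log2 units below the 3-library mean, against 0.06 and 0.16 above it in replicates 1 and 3. Of the macrophage markers, 8 of 8 reached 1 TPM in every library, among them Lyz2 (9400.4 ± 1767 TPM), Cd68 (2635 ± 1063 TPM), Adgre1 (1806 ± 496 TPM) and C1qa (730.0 ± 319 TPM). TPM is a level corrected for transcript length and library size, and errors are SDs over 3 libraries (n = 3). Neutrophil markers, the RNA of the cells that ELR chemokines draw, summed to 7.92, 28.2 and 8.49 TPM over 10 genes, with Ly6g and Retnlg at 0 counts in each library. Fibroblast markers summed to 0.680, 3.05 and 1.46 TPM over 8 genes. Endothelial markers summed to 37.8, 16.2 and 27.2 TPM over 6 genes. Kdr was the highest of them (35.2, 7.90 and 23.8 TPM), Cdh5 was at 0.360, 5.82 and 0.450 TPM, and Tek and Tie1 were at 0. Dendritic cell markers summed to 13.5, 9.98 and 22.2 TPM over 6 genes. The part of other cells, or of the mitochondrial share, in the results below was not tested. In bulk RNA, fewer cells of a type and less RNA per cell cannot be told apart.

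The interferon type stood far above the ELR type in every library, and a single gene carried it. Summed over members, the interferon type reached 6719.7, 3351 and 2912 TPM in replicates 1, 2 and 3, against 133, 16.4 and 13.8 TPM for the ELR type. Within a library the interferon type was 50.5-fold, 205-fold and 211-fold higher, a log2 ratio of 7.02 ± 1.18. The direction was the same in 3 of 3 libraries, and the ratio was lowest in replicate 1, where both sums were highest. No test was made, since the smallest p that an exact sign-flip test could give for 3 libraries is 0.25. Cxcl10 made up 98.3%, 96.0% and 98.7% of the interferon sum and Cxcl2 90.6%, 93.5% and 85.8% of the ELR sum. Without Cxcl10, the log2 ratio was -0.19, 3.03 and 1.43 in replicates 1, 2 and 3 (1.43 ± 1.61), so the interferon type then stood below the ELR type in replicate 1 and the mean lay within its SD. Without Cxcl2, the ratio was 10.41 ± 1.28. The place of the interferon type above the ELR type in all 3 libraries thus rested on Cxcl10.

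**Figure D1:**
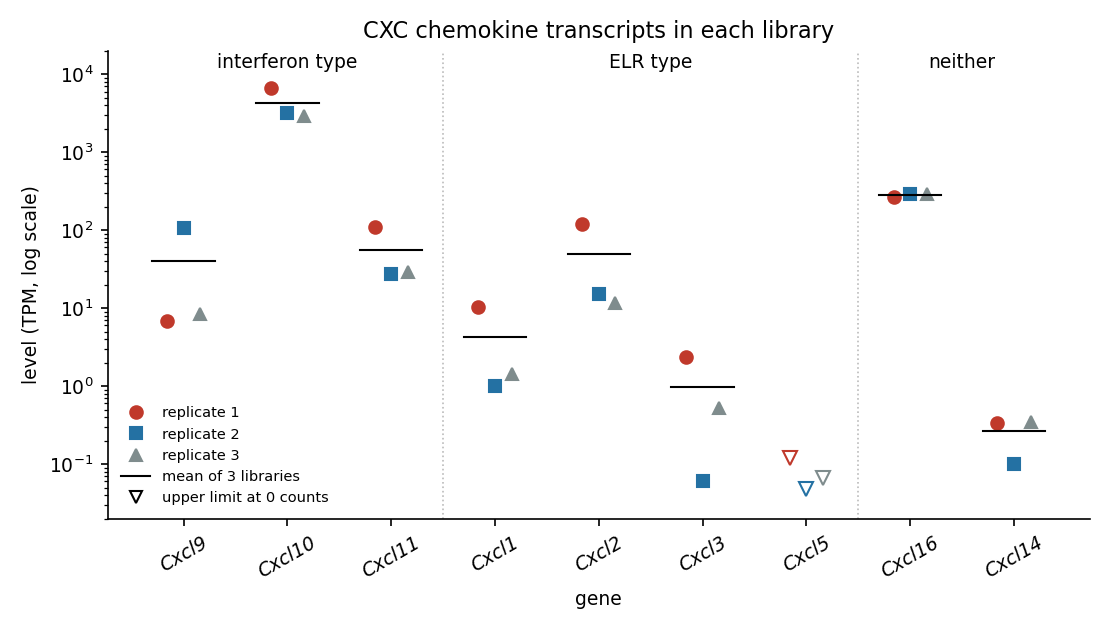
Level of each CXC chemokine in TPM on a log axis, with 1 symbol per library and a bar at the mean of 3 libraries; open triangles at Cxcl5 are the upper limits that a count of 0 allows. Cxcl10 lies between 2875 and 6603 TPM, above every other member in each library, and the ELR type genes with counts are highest in replicate 1.

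**Figure D2:**
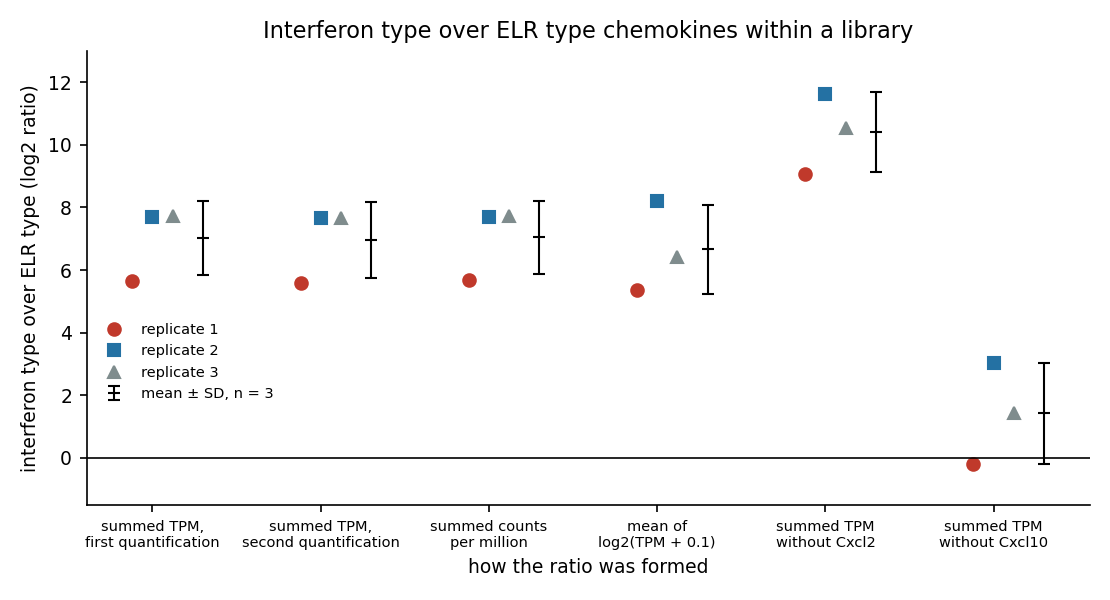
Log2 ratio of interferon type over ELR type within each library, formed in 6 ways, with the mean and SD of 3 libraries beside the points. The ratio is above 5 in all libraries for the ways that keep every member or leave out Cxcl2, and without Cxcl10 it spans -0.19 to 3.03.

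Among the interferon type, Cxcl10, whose protein draws CXCR3-bearing T cells, was read at 6603, 3217 and 2875 TPM (4232 ± 2061 TPM, 93361, 116821 and 72685 expected counts). It ranked 14, 25 and 29 among 22029 genes (the protein-coding genes and Cxcl11) in replicates 1, 2 and 3. Replicate 1 was the highest, at 2.05 times replicate 2 and 2.30 times replicate 3, and replicates 2 and 3 lay close. The gap to replicate 2 was smaller by CPM, counts scaled to library size without length (1.76 times), and in the second quantification (1.38 times), a separate estimate from the same reads.

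Cxcl11 was read at 109.9, 27.6 and 28.7 TPM (55.4 ± 47.2 TPM, and a mean of 28.2 TPM without replicate 1). Replicate 1 was again high, at 3.98 times replicate 2 and 3.83 times replicate 3. In replicates 2 and 3, its counts (1690 and 1574) did not differ beyond counting noise once scaled to library size (chi-square test of 2 libraries, unadjusted p = 0.0997, adjusted p = 0.12). The transcript Cxcl11-201 took 84.9%, 95% and 79.8% of the gene's TPM, and Cxcl11-202, itself classed as a polymorphic pseudogene, the rest. Cxcl10 exceeded Cxcl11 by 60.1-, 116- and 100.1-fold.

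Cxcl9, a chemokine for activated T cells known for its response to interferon gamma, ran the other way. It was read at 6.79, 106 and 8.48 TPM (40.6 ± 57.0 TPM, and a mean of 7.63 TPM without replicate 2), so replicate 2 alone was high, at 15.7 times replicate 1 and 12.6 times replicate 3. It ranked 7285 and 6905 of 22029 in replicates 1 and 3, and 1087 in replicate 2. Replicates 1 and 3 lay close but still differed beyond counting noise (chi-square test of these 2 libraries, adjusted p = 0.0125), as did 55% of the 12181 genes tested. How far replicate 2 stood out depended on the transcripts counted. In that library, 55.5% of the TPM of Cxcl9 was assigned to Cxcl9-202, a 370-base retained-intron transcript with 379 of the 5627 expected counts, against 3.54% in replicate 1 and 0% in replicate 3. Because this transcript is short, the effective length of the gene was 1274 bases in replicate 2 (2543 and 2604 bases in replicates 1 and 3), which raises its TPM there. By the coding transcript Cxcl9-201 alone, the level was 6.55, 47.3 and 8.48 TPM, and by CPM it was 12.0, 104 and 16.1. Replicate 2 then exceeded the mean of the other libraries 6.30-fold and 7.43-fold, against 13.9-fold by TPM of the gene. Replicate 2 remained the highest by every measure, and the share of Cxcl9-202 in replicates 1 and 3 was itself uncertain, at 41.8% and 25.4% in the second quantification.

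**Figure D3:**
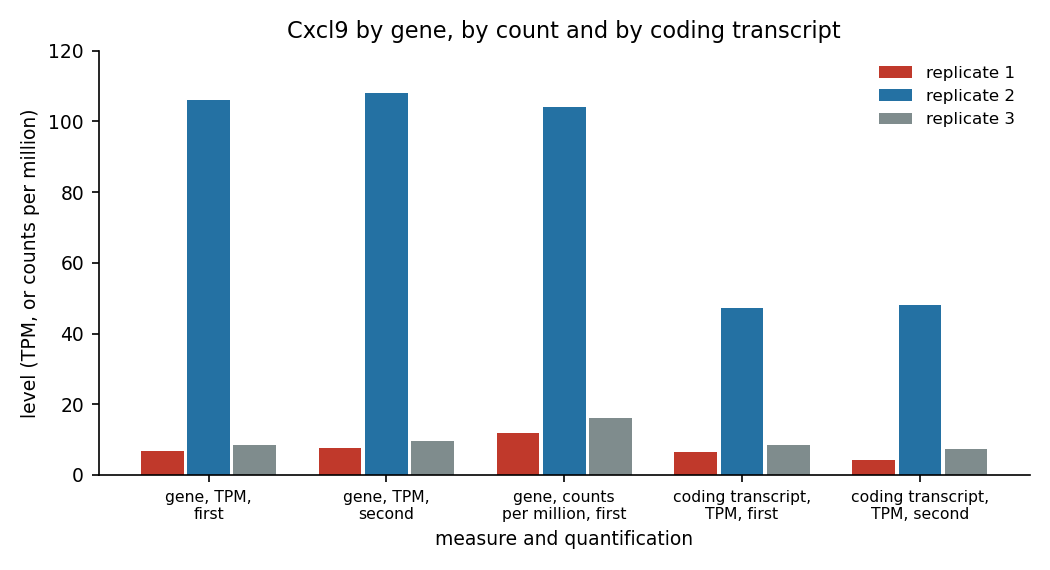
Cxcl9 in each library by 5 measures, in TPM or CPM as named under each set of bars, from the first or second quantification. Replicate 2 is the highest by each measure, at 106 TPM for the gene and 47.3 TPM for the coding transcript in the first quantification.

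Among the ELR type, Cxcl2, with Cxcl1 a major neutrophil attractant of mouse macrophages, led at 121, 15.3 and 11.8 TPM (49.2 ± 61.8 TPM; 1722, 563 and 314 expected counts). Without replicate 1 its mean was 13.6 TPM. Replicate 1 was 7.88 times replicate 2 and 10.2 times replicate 3, and its rank was 1064, against 4675 and 6008 in replicates 2 and 3. Cxcl1 (KC) followed at 10.2, 1.00 and 1.44 TPM (4.21 ± 5.18 TPM; 122, 31 and 31 expected counts), with a mean of 1.22 TPM without replicate 1. It too was high in replicate 1, at 10.2 times replicate 2 and 7.08 times replicate 3. Between replicates 2 and 3 its counts differed by less than counting noise (chi-square test, unadjusted p = 0.958, adjusted p = 0.964).

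Cxcl3, another CXCR2 ligand, was near the limit of counting. It was read at 2.33, 0.0600 and 0.520 TPM from 31, 2 and 12 expected counts, whose exact 95% Poisson intervals are 21.1 to 44.0, 0.242 to 7.22 and 6.2 to 21. Replicate 1 was thus 38.8 times replicate 2, with an exact 95% interval of 9.88 to 335 for counting error alone, and 4.48 times replicate 3 (2.24 to 9.58). Cxcl5, made mainly by epithelial cells and platelets, had 0 expected counts in every library, a count that allows levels of up to 0.121, 0.0482 and 0.0666 TPM (3 counts each). The second quantification gave it 0.0260, 0.155 and 0.0425 TPM. Intervals and limits cover counting error only.

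Cxcl16, a membrane-anchored chemokine that is shed by ADAM10 and binds CXCR6, was the second highest member, with the narrowest range of the members with counts in each library in both quantifications. It was read at 269.9, 287 and 294 TPM (284 ± 12.6 TPM), a range of 1.09-fold in the first quantification. Rescaled to nuclear protein-coding genes, it was 298, 388 and 331 TPM, and the second quantification gave 198, 306 and 267 TPM, a range of 1.54-fold. The order of the libraries and the width of the range thus depended on the scaling and the quantification. The coding transcript Cxcl16-201 took 53.8%, 47.7% and 60.8% of its TPM. Most of the rest was Cxcl16-202, classed as a target of nonsense-mediated decay (43.6%, 51.7% and 37.6%), with like shares in the second quantification (46.6%, 52.7% and 39.3%). Zmynd15 overlaps Cxcl16 by 552 bases on the other strand, with 559, 964 and 825 expected counts against 8223, 20664 and 17198 for Cxcl16. Cxcl14, a chemokine of epithelia and stroma, was near the floor at 0.340, 0.1 and 0.350 TPM from 9, 5 and 17 expected counts.

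By mean level the order was Cxcl10, Cxcl16, Cxcl11, Cxcl2, Cxcl9, Cxcl1, Cxcl3, Cxcl14 and Cxcl5. Neighbours were called separated where the log2 ratio of TPM + 0.1 kept 1 sign in every library and its mean exceeded 3 SD. Among the 8 members with counts, this held for 1 of 7 neighbours, Cxcl10 over Cxcl16 (3.79 ± 0.71). Cxcl16 lay above Cxcl11 in each library (2.67 ± 1.19), with the ranges of TPM apart but the mean within 3 SD. The middle of the order changed between libraries. Behind Cxcl10 and Cxcl16 came Cxcl2 in replicate 1, Cxcl9 in replicate 2 and Cxcl11 in replicate 3.

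Of the 12 pairs of an interferon type with an ELR type gene, 8 were separated by the same rule, all with the interferon type higher. They were all 4 pairs of Cxcl10, with a log2 ratio of 10.57 ± 1.12 over Cxcl1 and 7.13 ± 1.18 over Cxcl2, the pairs of Cxcl11 with Cxcl1 (4.10 ± 0.63), Cxcl3 (6.16 ± 1.11) and Cxcl5, and the pair of Cxcl9 with Cxcl5. Cxcl5 had 0 counts in every library, so the sign of its pairs was fixed in advance and their size rests on the pseudocount. With a pseudocount of 1 TPM, 7 pairs were separated, and Cxcl9 over Cxcl5 was not. Cxcl9 was then separated from no ELR type gene. No fold over Cxcl5 is given, since the second quantification put it at 0.155 TPM in replicate 2, above the limit of 0.0482 TPM that 0 counts allow in the first. The pairs not separated were Cxcl11 over Cxcl2 (-0.13, 0.85 and 1.27) and Cxcl9 over Cxcl1 (-0.58, 6.60 and 2.48), Cxcl2 (-4.13, 2.79 and -0.47) and Cxcl3 (1.5, 9.38 and 3.79). Cxcl9 thus lay below Cxcl1 in replicate 1 and above it in replicates 2 and 3. Within the ELR type, Cxcl2 exceeded Cxcl1 by 11.8-, 15.3- and 8.21-fold (3.44 ± 0.44), which was separated, while Cxcl1 over Cxcl3 (2.06 ± 0.73) was not.

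How the members varied between libraries was set against all genes. The filter on low counts kept 11932 genes and 6 of the 9 members, leaving out Cxcl3, Cxcl5 and Cxcl14. All 6 varied beyond counting noise by the chi-square test, as did 87.9% of the genes tested, so this share says nothing particular about them. edgeR's quasi-likelihood test of variance above the trend called 0 of 11932 genes at an adjusted p under 0.05 (0%), none of the 6 members, and 503 genes at an unadjusted p under 0.05 (4.22%). That share is under the one that the threshold alone would give. Among these 503 were Cxcl9 (unadjusted p = 0.00249), Cxcl2 (0.0035), Cxcl11 (0.019) and Cxcl1 (0.0201), 4 of the 6 members, all with an adjusted p of 0.933. Cxcl9 was not called although its variance was 29.9 times the trend, so 0 calls do not show an ordinary spread. By the ratio of their variance to the trend, Cxcl9 stood at percentile 99.9 of the genes tested, Cxcl2 at 99.8, Cxcl1 and Cxcl11 at 98.8, Cxcl10 at 69.6 and Cxcl16 at 21.7. Without replicate 2, Cxcl2 was called (edgeR quasi-likelihood, adjusted p = 0.00327) among 7 of 12181 genes (0.0575%). Without replicate 1, Cxcl9 was called (adjusted p = 0.0483) among 20 of 12205 genes (0.164%). Without replicate 3, 11 of 11944 genes were called (0.0921%) and 0 members.

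Replicate 1 was the highest library for Cxcl1, Cxcl2, Cxcl3, Cxcl10 and Cxcl11, by TPM, by CPM, rescaled to nuclear protein-coding genes and in the second quantification. Highest TPM fell in replicate 1 for 26.6%, in replicate 2 for 27.3% and in replicate 3 for 46.0% of 10003 protein-coding genes at a mean of 1 TPM or more. At that level were 6 members, of which Cxcl1, Cxcl2, Cxcl10 and Cxcl11 were highest in replicate 1, Cxcl9 in replicate 2 and Cxcl16 in replicate 3. The same 4 reached at least 2 times each other library in replicate 1, a fold chosen with the values known, which 1.47% of the genes did. Cxcl9 reached it in replicate 2, which 4.37% did. On TMM-scaled counts, Cxcl10 fell short of this fold and the other 3 kept it, beside 1.35% of all genes.

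The members were set beside genes of the pathways that induce them. Of 12 early response genes downstream of NF-kB, 11 had a mean of 1 TPM or more. Of these, 9 were highest in replicate 1 (26.6% of all 10003 genes). At least 2 times each other library was reached there by 5 (1.47% of all genes). The cytokine Tnf was read at 706, 233 and 231 TPM, Il1b at 292, 132 and 130.3 TPM, Il1a at 267, 152 and 82.0 TPM, and the NF-kB inhibitor Nfkbia at 522, 130.5 and 249 TPM. The lowest were Il6, at 62.9, 3.25 and 7.90 TPM, and Csf3, the growth factor for neutrophils, at 0.970, 0.0400 and 0.0800 TPM. For these 11 genes the median log2 ratio of replicate 1 over the mean of the other libraries was 1.19, against 3.05 for the 2 ELR type genes at this level, 1.12 for the interferon type and 0.05 for all 10003 genes.

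Of 11 interferon response genes, 11 had a mean of 1 TPM or more. Highest in replicate 1 were 10 of them (26.6% of all genes), and 1 (Ifnb1) reached the 2-fold there (1.47% of all genes). The T cell chemokine Ccl5 led at 32924, 6168 and 29588 TPM, followed by the antiviral proteins Rsad2 (4379.9, 2758 and 2558 TPM) and Isg15 (4478, 1139 and 3347 TPM) and the regulator Irf7 (2908, 2136 and 2569 TPM). The lowest were Irf1 (244, 215 and 149 TPM) and interferon beta itself, Ifnb1 (9.90, 1.99 and 2.39 TPM). The median log2 ratio of replicate 1 over the others was 0.50. Rescaled to nuclear protein-coding genes, 9 of the 11 were highest in replicate 1, as were 20.2% of all 10003 genes. The second quantification did not keep this order for most of the genes named. There, Rsad2 (3026, 2854 and 2298 TPM) and Ifnb1 (10.3, 2.13 and 4.10 TPM) were still highest in replicate 1. Ccl5 (22001, 5996 and 27413 TPM), Isg15 (2979, 1105 and 3069 TPM), Irf7 (2022, 2202 and 2202 TPM) and Irf1 (193, 279.8 and 169 TPM) were not.

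**Figure D4:**
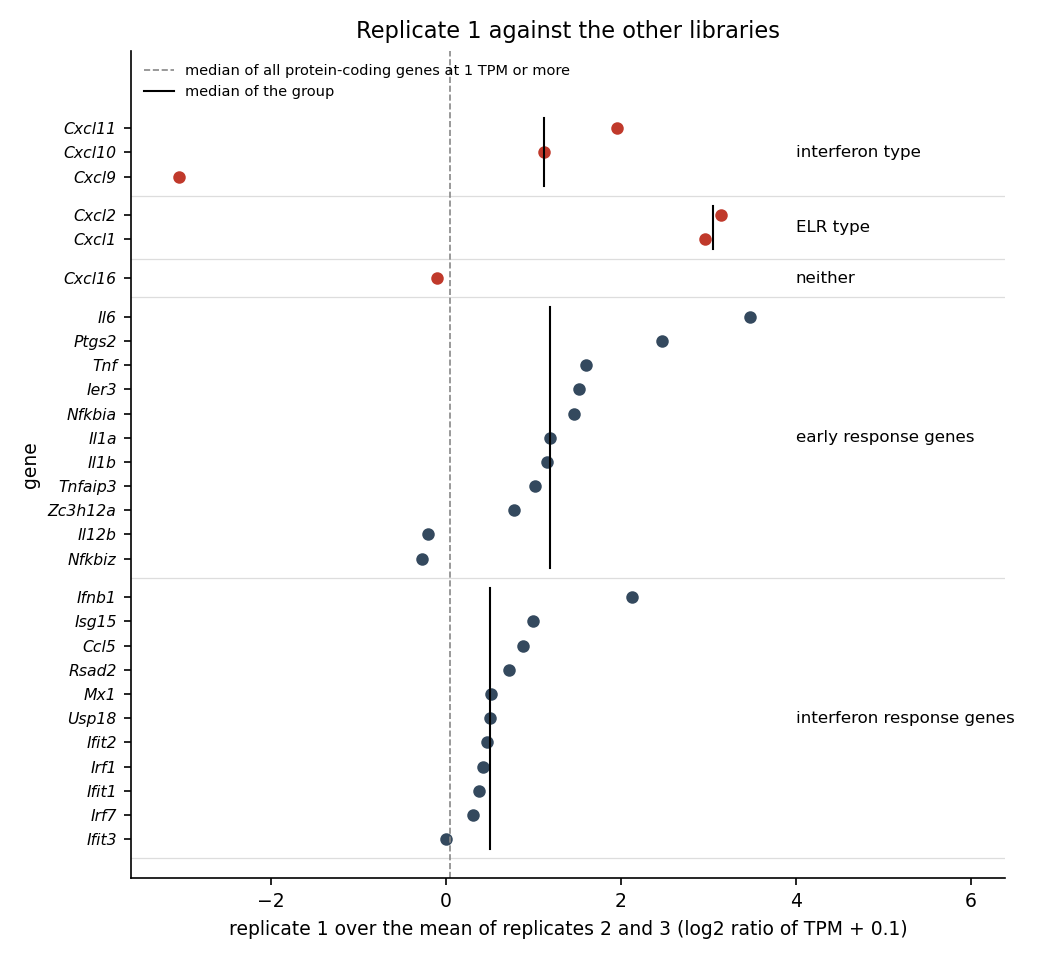
Log2 ratio of TPM + 0.1 in replicate 1 over the mean of replicates 2 and 3, 1 point per gene at a mean of 1 TPM or more, for the CXC chemokines (red) and the early and interferon response lists (dark), with group medians as black lines and the median of all genes (0.05) dashed. Cxcl1 and Cxcl2 stand far to the right with Il6 and Ptgs2, Cxcl10 and Cxcl11 between, Cxcl16 near 0 and Cxcl9 far to the left.

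The genes whose pattern over the 3 libraries was most like that of Cxcl2, among 6270 protein-coding genes at a mean of 10 TPM or more, were the mitochondrial mt-Co3 (783, 105 and 72.3 TPM), Ptgs2, the inducible cyclooxygenase (90.0, 18 and 14.2 TPM), and Adora2a, an adenosine receptor (53.1, 8.18 and 11.0 TPM). Mitochondrial messenger RNAs as a whole did not share the pattern of mt-Co3, with 1.06%, 6.86% and 1.13% of counts in replicates 1, 2 and 3. For each gene, log2(TPM + 1) was centred on its mean, and likeness is the largest difference from the centred values of Cxcl2 in any library, at 0.12, 0.43 and 0.60 for these genes. For Cxcl10 they were Fam102b (0.022), Acsl1, which activates fatty acids (0.051; 259.6, 123 and 105 TPM), and Slc30a7, a zinc transporter (0.068).

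Transcripts of cytokines are known to be cleared through AU-rich elements in the 3′ untranslated region, of which the pentamer ATTTA (as written in DNA) is the core. In the transcripts ending in 201, Cxcl9 held 3 in 2452 bases after the stop codon, Cxcl10 2 in 729 and Cxcl11 1 in 1218, while Cxcl1 held 7 in 592, Cxcl2 11 in 734, Cxcl3 5 in 645 and Cxcl5 5 in 1111. Per 1000 bases this was 1.22, 2.74 and 0.821 for the interferon type, against 11.8, 15, 7.75 and 4.50 for the ELR type. The median of 11446 protein-coding genes with at least 500 bases after the stop was 1.52. At or above the density of Cxcl2 were 0.0262% of these genes, and at or above those of Cxcl1, Cxcl3 and Cxcl5 were 0.0874%, 0.716% and 7.27%, against 24.5% for Cxcl10, 58.6% for Cxcl9 and 70.3% for Cxcl11. Cxcl16 held 2 in 1421 bases and Cxcl14 none in 1149. A count of letters does not measure decay.

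**Figure D5:**
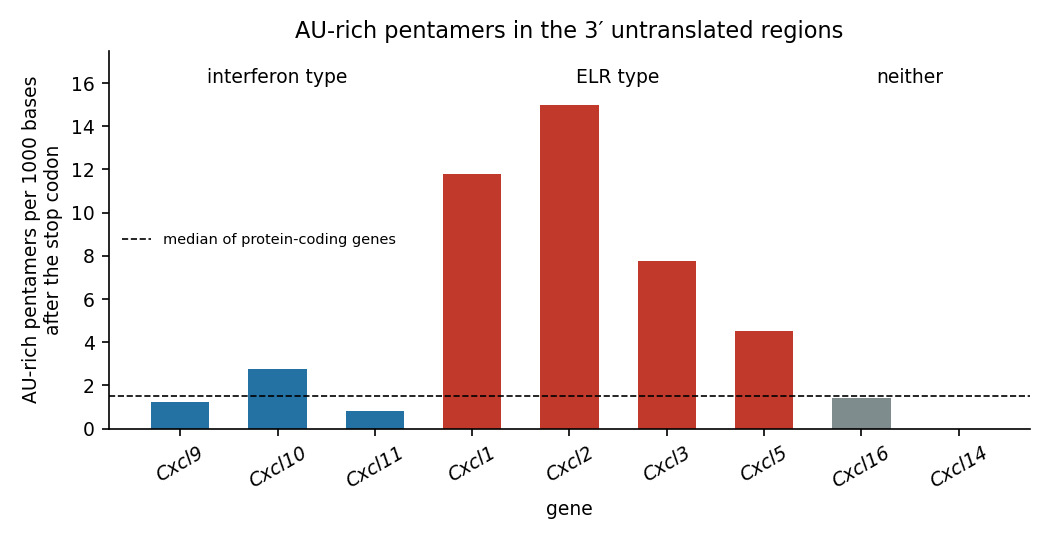
ATTTA pentamers per 1000 bases after the stop codon in the transcript ending in 201 of each member, with interferon type in blue, ELR type in red and the others in grey; the dashed line is the median of 11446 protein-coding genes, 1.52. All 4 ELR type genes lie above the 3 interferon type genes.

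Factors that act on AU-rich elements or on stem-loops, which are folded stretches, of cytokine transcripts were all read. Of 10, 10 reached 1 TPM in every library, led by Hnrnpd (163 ± 42.0 TPM), the decay factor Zfp36, tristetraprolin (107 ± 22.3 TPM), its relative Zfp36l2 (76.7 ± 2.71 TPM) and Arid5a, which protects Il6 transcripts (42.4 ± 18.6 TPM). The lowest were the roquins Rc3h1 (5.39 ± 0.331 TPM) and Rc3h2 (5.92 ± 0.983 TPM). By TPM 6 of the 10 were highest in replicate 1 (26.6% of all genes) and 4 after rescaling to nuclear protein-coding genes (20.2% of all genes), and 0 reached 2-fold there. Zc3h12a stands in both this and the early response list.

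Receptors of these ligands were scarce in the macrophages. Cxcr3, the receptor of the interferon type, was read at 1.24, 1.00 and 3.13 TPM, and Cxcr4, the receptor of Cxcl12, at 2.16, 2.07 and 3.92 TPM. Cxcr6, the receptor of Cxcl16, stood at 0.110, 0.0900 and 0.1 TPM, Cxcr5 at 0.380, 0.05 and 0.0700 TPM, and Cxcr1 at 0.0700, 0 and 0 TPM. The decoy receptors Ackr1 and Ackr3 had 0 counts. Cxcr2, the receptor of the ELR type, had 0, 1 and 1 expected counts (0, 0.0100 and 0.0200 TPM), but the second quantification gave it 0.330, 5.16 and 0.306 TPM, so its level in replicate 2 was not settled by these files. That library also held more RNA of some neutrophil markers, with Ngp at 0.0600, 4.97 and 0.0700 TPM, S100a8 at 1.27, 6.91 and 2.45 TPM, S100a9 at 1.83, 9.64 and 2.61 TPM and Mmp8, also a protease that cuts chemokines, at 3.88, 6.04 and 3.00 TPM. Ltf (0.150, 0.340 and 0 TPM) and Mpo (0.0300, 0.120 and 0 TPM) were highest there too, near the floor. Camp (0.700, 0.180 and 0.270 TPM) and Elane (0, 0 and 0.0900 TPM) were not, and Ly6g and Retnlg had 0 counts.

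Of the proteases known to shed or cut CXC chemokines, Adam17 (69.9 ± 3.13 TPM) and Adam10 (33.4 ± 4.82 TPM), both sheddases, led, with Adam10 at 29.0, 38.5 and 32.6 TPM in the first quantification and 20.2, 43.3 and 28.9 TPM in the second. Mmp12 (5.03 ± 1.10 TPM) and Mmp8 (4.31 ± 1.56 TPM) were low. Dpp4, which clips the amino end of the interferon type, was read at 0.190 ± 0.165 TPM and Mmp9 at 0.410 ± 0.208 TPM. Of 6 CXC ligands outside the 9, Pf4 (Cxcl4) was read at 136, 84.3 and 110.1 TPM, above every member but Cxcl10 and Cxcl16 by mean level (110.2 ± 25.8 TPM). Ppbp (Cxcl7), an ELR ligand best known from platelets, was at 0.0700, 4.01 and 0.320 TPM, high in replicate 2 and not in replicate 1, unlike Cxcl1, Cxcl2 and Cxcl3. Cxcl12 had 1, 2 and 2 counts, and Cxcl13, Cxcl15 and Cxcl17 had 0 in each library.

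The members were last compared between the quantifications. limma on the within-library differences of log2(TPM + 1), first minus second quantification, called 178 of 10213 protein-coding genes (1.74%) and 0 of the 6 members tested. The differences of these 6 ran between -0.109 (SE 0.197) for Cxcl9 and 0.279 (SE 0.215) for Cxcl10, and a test that misses its threshold does not show that they are alike. These means hide a gap in replicate 1, where Cxcl10 fell from 6603 to 4335 TPM in the second quantification and Cxcl2 from 121 to 83.6. In replicate 2, Cxcl10 was at 3217 and 3133 TPM and Cxcl2 at 15.3 and 14.9. Cxcl1, Cxcl11 and Cxcl16 were also lower in the second quantification of replicate 1, and Cxcl9 was higher. The fall in replicate 1 was not particular to the members. Outside them, all list genes at a mean of 1 TPM or more fell there except Ifnb1 and Pecam1. Examples are Lyz2 (10132 and 6629.6 TPM), Tnf (706 and 473 TPM), Ccl5 (32924 and 22001 TPM) and Adgre1 (1746 and 1161 TPM). Ifnb1 was at 9.90 and 10.3 TPM and Pecam1 at 2.20 and 13.5 TPM. Counts in the second quantification were 32102106, 57248329 and 47155021 in replicates 1, 2 and 3, against 24596382, 54016971 and 43127749 in the first. The cause was not tested.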

How the data were processed

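Polyadenylated RNA of 3 libraries, prepared from 1 µg of RNA each and forming 1 group per the labels, was quantified on mm10 with GENCODE M21, per the notes deposited with the files. Aligner, counter and strandedness: not given in the sources used here. The deposited first quantification (column layout of RSEM, genes and transcripts, from transcriptome alignments) holds, per the file headers, expected counts, in which a read that fits several transcripts is divided among them, TPM, and each transcript's percent of its gene. Per the file headers, the deposited second quantification (column layout of kallisto, transcripts, from the reads) holds estimated counts and TPM, which were summed to genes.

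Entries that name no annotated gene (0.0875%, 0.0464% and 0.0636% of counts) stayed out of tests. Expected counts were rounded. Excess variance was tested with edgeR 4.0.16 (filterByExpr, TMM factors 1.01, 0.886 and 1.12, quasi-likelihood, residual variance against the trend, one-sided), counting noise by a chi-square test on TMM-scaled sizes, and the quantifications by limma 3.58.1 (pseudocount 1 TPM, adjusted p under 0.05 and a difference of at least 1), all with Benjamini-Hochberg adjustment over all genes tested. The steps were tested on simulated counts. Ratios between genes used a pseudocount of 0.1 TPM, and a count of 0 was given a limit of 3 counts. With 1 donor record, p-values measure the spread between these libraries, which may be technical. Protein sequences were not used here, and the ELR was read from coding bases of M21. The members, lists and tests were chosen with earlier results of these data known. Genes named were all 9 members and all receptors, up to the 4 highest and 2 lowest of each list, and the 3 genes most like Cxcl2 and Cxcl10. Genes outside this rule (Zc3h12a, Art3, Zmynd15, Ltf, Mpo, Camp and Elane) were named after their values were seen. From the interferon response list, 1 gene is not reported here and stands outside its counts. DESeq2 1.42.0 gave alternative size factors.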

Additional observations from a re-analysis of the deposited data

How the results depend on the processing

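No paired analysis was possible because the libraries form 1 group and their numbers pair nothing. The log2 ratio of interferon over ELR type (7.02) stayed within 1 SD by CPM, in the second quantification and as a mean of log2 values. It moved to 1.43 without Cxcl10 and to 10.41 without Cxcl2, and ran from 6.67 to 7.70 as each library was left out. Separated pairs numbered 8 of 12, 7 with a pseudocount of 1 (Cxcl9 over Cxcl5 was lost), and 7 to 9 as each library was left out. The quasi-likelihood test (edgeR) called 0 genes, 64 with no filter on low counts, Cxcl2 (adjusted p = 0.0447) and Cxcl9 (0.0269) among them, and 7 to 20 as each library was left out. The chi-square test called 10491 genes, and 6695 to 9696 as each library was left out. The lowest of these was without replicate 2. The comparison of quantifications called 178 genes, 60 with no filter on low values, and 177 to 208 as each library was left out. Of 46 alternatives to the members' mean levels, 43 stayed within 1 SD, but where 1 library sets the mean that SD is as large as the mean. Of the 27 that left out a library, 5 moved a mean by over 1.5 times. Without replicate 1, the mean of Cxcl1 was 1.22 TPM (4.21 with all 3), of Cxcl2 13.6 (49.2), of Cxcl3 0.290 (0.970) and of Cxcl11 28.2 (55.4), and without replicate 2 that of Cxcl9 was 7.63 (40.6). The mean of Cxcl16 moved to 339 TPM rescaled to nuclear protein-coding genes and to 257 TPM in the second quantification, and that of Cxcl5 to 0.0746 TPM in the second. The cause of these shifts was not tested, except that leaving out a gene changes the sum by construction. On alternatives chosen after the data were seen, replicate 2 exceeded the others for Cxcl9 13.9-fold by TPM of the gene, 7.43-fold by CPM and 6.30-fold by the coding transcript, and genes highest in replicate 2 numbered 2735 by TPM and 4238 by TMM-scaled counts, against 4605 and 3032 for replicate 3. Depth limits Cxcl3, Cxcl5 and Cxcl14, which had at most 31 counts in a library.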
